A study of Mus musculus with 10 samples.

Results

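The S100 proteins and annexins described here are 10 of the 35976 genes in the deposited count table: S100a1, S100a4, S100a6, S100a10, S100a11, S100a13, Anxa1, Anxa2, Anxa5 and Anxa6. All 10 were found by their symbols. They were chosen by family name and from earlier results of these same libraries. Which measured values entered that choice was not recorded, so the knockout comparisons in single embryos and in pools both count as used for it, and their values are given as a description.

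RNA of mouse morulae was sequenced, with BDF1 x PWK as the strain in every group. The libraries form 4 groups: 3 single female embryos labelled Jarid2 KO (replicates 1, 3 and 4), 3 single female embryos labelled WT (replicates 1 to 3), 2 pools of about 20 embryos labelled Jarid2 KO, and 2 pools of about 20 embryos labelled CTR. Replicate 2 of the knockout single embryos is not among these libraries, and no value column of the deposited counts was left unused. The sources used here do not give the sex of the pooled embryos, the Jarid2 allele, any Cre used to make it or its parental origin. Jarid2 is a cofactor of PRC2, the Polycomb complex that methylates lysine 27 of histone H3, and the study compared morulae labelled as lacking it with control morulae.

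S100 proteins are small calcium sensors that usually act as dimers. Calcium binding to their EF-hand loops opens a surface that grips short helices of other proteins, and several of those targets are annexins. Annexins are a separate family that binds acidic phospholipids of membranes when calcium is present, and they take part in membrane repair, vesicle traffic and the coupling of membrane to cortical actin. The best known S100 and annexin complex joins a dimer of S100A10 to a pair of annexin A2 molecules. In the mouse most S100 genes lie in a cluster on chromosome 3, whereas annexin genes are scattered over the genome.

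The promoters of 8 of the 10 genes were matched in the RefSeq promoter table (build GRCm38.p6), with S100a10 and Anxa6 missing. A promoter window here is 300 bases long and ends 50 bases past the annotated start. The 4 windows below are shown because they mark the contrasts described later: S100a6, whose level was higher in every knockout library of both sets, its near neighbour S100a4, which was close to 0, and Anxa2 and Anxa5, whose groups were apart in single embryos and overlapped in pools. Capitals mark CG pairs, the sites of DNA methylation, and each sequence runs 5′ to 3′ on the strand of its gene.
S100a6, chr3:90612644-90612943, plus strand: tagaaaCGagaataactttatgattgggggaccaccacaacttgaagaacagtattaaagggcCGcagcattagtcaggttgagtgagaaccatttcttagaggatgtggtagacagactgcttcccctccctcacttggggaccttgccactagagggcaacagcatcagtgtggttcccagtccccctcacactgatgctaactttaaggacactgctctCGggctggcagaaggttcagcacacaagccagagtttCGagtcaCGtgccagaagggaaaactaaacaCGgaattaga
S100a4, chr3:90603520-90603819, plus strand: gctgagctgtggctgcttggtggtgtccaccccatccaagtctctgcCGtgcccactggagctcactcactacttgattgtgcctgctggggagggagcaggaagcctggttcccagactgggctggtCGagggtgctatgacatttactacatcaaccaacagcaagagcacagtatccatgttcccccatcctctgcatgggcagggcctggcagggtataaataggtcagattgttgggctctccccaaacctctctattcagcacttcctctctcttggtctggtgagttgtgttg
Anxa2, chr9:69453433-69453732, plus strand: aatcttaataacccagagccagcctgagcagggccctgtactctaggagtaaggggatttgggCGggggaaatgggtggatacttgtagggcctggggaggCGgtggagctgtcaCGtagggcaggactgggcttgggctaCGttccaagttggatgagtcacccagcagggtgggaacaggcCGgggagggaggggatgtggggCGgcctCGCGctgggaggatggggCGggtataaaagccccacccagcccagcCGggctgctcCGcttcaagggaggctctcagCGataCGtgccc
Anxa5, chr3:36475838-36476137, minus strand: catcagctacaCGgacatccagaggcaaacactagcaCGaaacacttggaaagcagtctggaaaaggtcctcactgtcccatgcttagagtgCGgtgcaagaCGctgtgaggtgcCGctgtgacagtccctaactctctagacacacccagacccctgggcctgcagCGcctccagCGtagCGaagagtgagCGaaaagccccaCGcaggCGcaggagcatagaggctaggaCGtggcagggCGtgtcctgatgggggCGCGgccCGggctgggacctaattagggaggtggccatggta
The S100a6 window held 6 CG pairs and the S100a4 window 2, against a median of 7 over all 32841 windows of the table (quartiles 3 and 20). The Anxa2 window held 13 and the Anxa5 window 16. Of the other matched windows, those of S100a11, S100a13 and S100a1 held 15, 14 and 11 CG pairs, and that of Anxa1 held 3. The S100a13 and S100a1 windows overlap on opposite strands, so part of their CG pairs are the same sites. The letters TATAAA, the core of a TATA box, were found on either strand in the S100a4, Anxa2 and Anxa1 windows and in 13.6% of all windows. The AP-1 letters TGANTCA were found once in the Anxa2 window and 2 times in that of S100a11, against 7.8% of all windows with at least 1. The GC box letters GGGCGG were found 3 times each in the Anxa2 and S100a11 windows and in none of the other 6 matched windows, against 35.7% of all windows with at least 1. The E-box letters CANNTG were found 2 times in the S100a6 window, and 72.3% of all windows hold at least 1. These matches describe letters within the windows and say nothing of binding.

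Total counts were 18015186, 18696312 and 18071881 in knockout single embryos 1, 3 and 4, and 14830332 to 17534188 in the WT single embryos. They were 49861963 and 41003216 in knockout pools 1 and 2, against 42906533 and 47458704 in the control pools. Genes with at least 1 count numbered 17464 to 18311 in knockout single embryos and 16364 to 17387 in WT single embryos. They numbered 21108 and 21212 in knockout pools, against 20245 and 20378 in control pools. Detection was thus higher in the knockout group of both sets, and its part in the results was not tested. Jarid2 itself had 156.1, 318.7 and 61.3 CPM (counts per gene after scaling every library to the same total) in knockout single embryos 1, 3 and 4, against 580.3, 686.0 and 775.6 CPM in WT embryos. It had 180.6 and 157.9 CPM in knockout pools, against 442.4 and 496.3 CPM in control pools. Every knockout library was below every control library, with knockout embryo 3 the highest of its group (log2 change -1.92, SE 0.43, adjusted p = 0.0342 in single embryos; -1.55, SE 0.18, adjusted p = 0.0794 in pools; edgeR quasi-likelihood test). The Jarid2 call in single embryos was lost without knockout embryo 1 or 4 or WT embryo 1 or 3 (adjusted p 0.0735 to 0.127). All 12 markers of morulae and early lineages were counted in every library, summing to 4191 to 5685 CPM in knockout single embryos and 5475 to 5514 CPM in WT single embryos, and to 4420 to 4597 CPM in knockout pools and 4667 to 4881 CPM in control pools. One of the 12, Cdh1 (E-cadherin), fell in knockout single embryos, at 108.9 to 247.8 CPM against 404.8 to 812.2 CPM in WT embryos (log2 change -1.91, adjusted p = 0.0180, edgeR). That gene was named after its values were seen, and its call was lost without knockout embryo 1 or 4 or WT embryo 1 or 3 (adjusted p 0.0649 to 0.0840). Markers of cumulus cells summed to 3.15 to 5.40 CPM in knockout and 5.06 to 9.91 CPM in WT single embryos, and to 1.83 to 3.27 CPM in knockout and 1.07 to 1.48 CPM in control pools, with 4 of the 10 at 0 in every library. Those of oviduct summed to 3.22 to 19.4 CPM in knockout and 0.058 to 8.16 CPM in WT single embryos, and to 5.78 to 10.9 CPM in knockout and 5.22 to 8.18 CPM in control pools, with 1 of the 5 at 0 throughout. Those of stroma summed to 9.27 to 56.1 CPM in knockout and 12.3 to 141.7 CPM in WT single embryos, and to 13.96 to 14.4 CPM in knockout and 13.6 to 15.7 CPM in control pools, with 2 of the 7 at 0 throughout. Blood markers stayed under 0.89 CPM in total in every library, with 4 of the 7 at 0 throughout. Pdgfra made up most of the stroma sum in every library, with 140.9 of the 141.7 CPM in WT embryo 1. Star likewise made up most of the cumulus sum, with 9.04 of the 9.91 CPM in WT embryo 1. Krt7 made up 17.8 of the 19.4 CPM of oviduct markers in knockout embryo 3. These sums thus do not speak for their lists as a whole. In these whole-embryo samples, fewer cells of a type and less RNA per cell cannot be told apart.

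S100a6 (calcyclin, a calcium sensor that binds annexins and the ubiquitin ligase adaptor CacyBP) was the one gene of the 10 whose level was higher in every knockout library than in every control library of its own set in both sets. Its gene lies at chr3:90612894-90614414. It had 10.4, 8.99 and 14 CPM in knockout single embryos 1, 3 and 4, against 4.52, 4.22 and 3.16 CPM in WT single embryos 1 to 3. It had 17.6 and 37.3 CPM in knockout pools 1 and 2, against 8.58 and 8.81 CPM in control pools 1 and 2. The groups did not overlap in either set, and the knockout pools differed from each other by more than any other pair of libraries within a group. Every knockout above every control library was an order held by 12.6% of all genes tested in single embryos and by 24.3% in pools. The share of genes with that order in both sets was not computed. The log2 change was 1.54 (SE 0.47, adjusted p = 0.0829) in single embryos and 1.55 (SE 0.30, adjusted p = 0.336) in pools, by edgeR's quasi-likelihood test with Benjamini-Hochberg adjustment over all genes tested. Neither passed 5%. The unadjusted p was 0.00717 in single embryos and 0.00034 in pools. Knockout pool 2 carried much of the pooled value, which was 0.997 without it (adjusted p = 0.135, edgeR), and the call changed with the method: DESeq2 gave adjusted p = 0.0155 in single embryos and 0.000566 in pools.

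**Figure D1:**
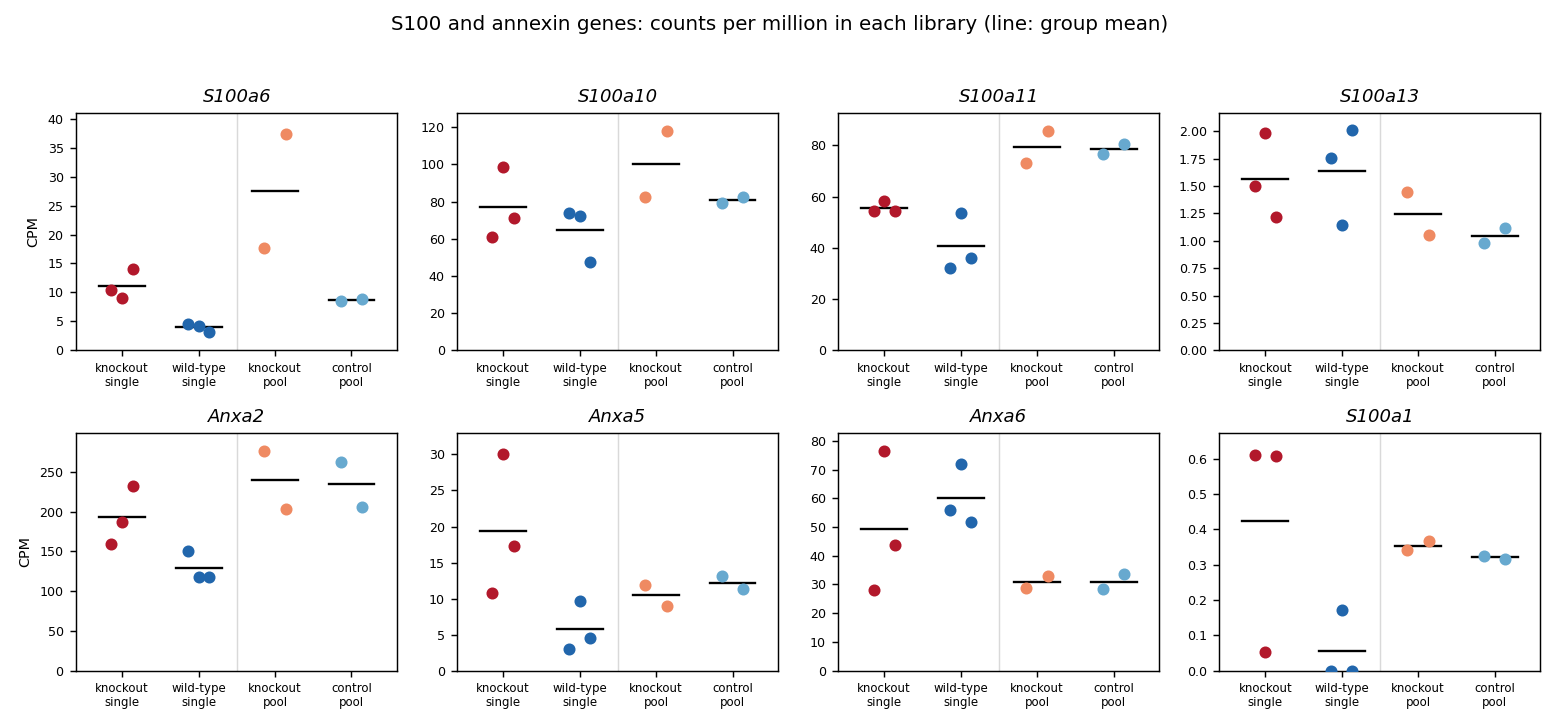
CPM (y axis, linear, each panel with its own scale from 0) of 8 of the 10 genes in each of the 10 libraries; points are libraries, lines are group means, and the groups run from knockout to wild-type single embryos and then from knockout to control pools. S100a6 was higher in all 5 knockout libraries than in the controls of their set, Anxa5 and Anxa2 were higher in every knockout than in every wild-type single embryo and overlapped between knockout and control pools, and S100a4 and Anxa1, near 0 throughout, are not drawn.

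Anxa2 and S100a10, the partners of the membrane-bound heterotetramer, were among the most abundant of the 10 genes. Anxa2 (chr9:69453683-69491792) had 159.6, 187.1 and 232.8 CPM in knockout single embryos, against 150.3, 117.4 and 118.3 CPM in WT single embryos. It had 277.0 and 203.8 CPM in knockout pools, against 263.1 and 206.5 CPM in control pools. The single-embryo groups did not overlap, although knockout embryo 1 was within 10 CPM of WT embryo 1, and the pools overlapped. The log2 change was 0.63 (SE 0.21, adjusted p = 0.111, edgeR) in single embryos and -0.05 (SE 0.22, adjusted p = 0.987) in pools. S100a10, also known as p11, has lost calcium binding and holds annexin A2 in its bound form at all calcium levels. It had 61.2, 98.6 and 71.4 CPM in knockout single embryos, against 73.9, 72.3 and 47.7 CPM in WT single embryos. It had 82.4 and 118.1 CPM in knockout pools, against 79.1 and 82.6 CPM in control pools. S100a10 overlapped in both sets, with log2 changes of 0.29 (SE 0.25, adjusted p = 0.548, edgeR) in single embryos and 0.21 (SE 0.18, adjusted p = 0.879) in pools. The S100a10 gene (chr3:93555117-93564645) follows that of S100a11 after a gap of 28.83 kb.

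The ratio of S100a10 to Anxa2 counts did not separate the groups. It was 0.384, 0.527 and 0.307 in knockout single embryos, against 0.492, 0.616 and 0.404 in WT single embryos. In pools it was 0.297 and 0.58 with the knockout, against 0.301 and 0.4 in controls. The widest gap between 2 libraries of a group was that of the knockout pools, in which pool 2 had more S100a10 and less Anxa2 than pool 1.

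S100a11 (calgizzarin) binds the N-terminus of annexin A1 and, in membrane repair, acts with annexin A2. It had 54.3, 58.4 and 54.3 CPM in knockout single embryos, against 31.96, 53.8 and 36.2 CPM in WT single embryos. It had 73.3 and 85.6 CPM in knockout pools, against 76.4 and 80.3 CPM in control pools. WT embryo 2 lay within 1 CPM of the lowest knockout embryo, and the pools overlapped. The log2 change was 0.50 (SE 0.27, adjusted p = 0.292, edgeR) in single embryos and -0.07 (SE 0.16, adjusted p = 0.967) in pools. Its annexin partner Anxa1, an actor in inflammation and in inward vesiculation of endosomes, was nearly absent. Anxa1 had 0, 0 and 19 counts in knockout single embryos, against 0, 2 and 0 counts in WT single embryos, and 0 and 2 counts in knockout pools, against 2 and 6 counts in control pools. A count of 0 allows up to 0.16 to 0.202 CPM in a single-embryo library and up to 0.06 to 0.073 CPM in a pool (3 counts, counting error only). Anxa1 did not pass the filter on low counts in either set, and its counts were too low for a ratio to S100a11.

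Anxa5 binds phosphatidylserine, the lipid exposed on the surface of dying cells, and forms lattices on membranes. It had 10.7, 30.1 and 17.3 CPM in knockout single embryos, against 2.97, 9.70 and 4.49 CPM in WT single embryos. It had 11.9 and 9.02 CPM in knockout pools, against 13.1 and 11.3 CPM in control pools. The single-embryo groups did not overlap, but knockout embryo 1 and WT embryo 2 were close together, and in pools the groups overlapped with the lowest value in knockout pool 2. The log2 change was 1.78 in single embryos (SE 0.53, adjusted p = 0.0780, edgeR) and -0.31 in pools (SE 0.25, adjusted p = 0.872). The single-embryo value was 1.39 without knockout embryo 3 and 2.36 without WT embryo 2. Across the sets, the single-embryo change minus the pooled change was 2.12 for Anxa5 (SE 0.71, adjusted p = 0.240, edgeR over all 10 libraries), 0.70 for Anxa2 (SE 0.34, adjusted p = 0.356) and 0.02 for S100a6 (SE 0.52, adjusted p = 0.993). No member's change was thus shown to differ between single embryos and pools. In the difference of the sets, 0.0063% of all 15878 genes passed 5%, by edgeR, which was 1 gene, St6galnac4, named after its value was seen. Of the 8 members tested there, 1 (Anxa5) had an unadjusted p under 0.05 by edgeR, as did 2326 of all 15878 genes, a share much like 1 in 8. DESeq2 called 0 of the members, but it gave an adjusted p to only 4795 of the 15878 genes. Its 0 can thus include members left without an adjusted p, and nothing is read from it. Anxa5 (chr3:36448923-36475887) contains the microRNA gene Mir7009, and Anxa2 contains Mir3109, which are separate entries of the table.

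Anxa6, a double-length annexin that scaffolds late endosomes and the membrane skeleton, had the opposite sign in single embryos. It had 27.9, 76.4 and 43.8 CPM in knockout single embryos, against 56.0, 72.0 and 51.8 CPM in WT single embryos. It had 28.8 and 32.9 CPM in knockout pools, against 28.4 and 33.6 CPM in control pools. The groups overlapped in both sets, knockout embryos 1 and 3 being the lowest and the highest single embryos. The log2 change was -0.26 (SE 0.32, adjusted p = 0.686, edgeR) in single embryos and -0.10 (SE 0.18, adjusted p = 0.961) in pools. Knockout embryo 3, which had the most Jarid2 of its group, also had the most Anxa5, Anxa6, S100a10, S100a11 and S100a13 and the least S100a6 of its group.

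The remaining S100 genes were rare. S100a13, which takes part in the release of growth factors that lack a signal peptide, had 1.499, 1.98 and 1.22 CPM in knockout single embryos, against 1.75, 1.14 and 2.01 CPM in WT single embryos. It had 1.44 and 1.049 CPM in knockout pools, against 0.979 and 1.12 CPM in control pools. Its groups overlapped in both sets (log2 change -0.03, SE 0.88, adjusted p = 0.987 in single embryos; 0.18, SE 0.49, adjusted p = 0.975 in pools; edgeR). In single embryos its sign was positive with DESeq2 size factors and with upper-quartile scaling. S100a1, a regulator of calcium cycling in heart muscle, had 11, 1 and 11 counts in knockout single embryos, against 0, 3 and 0 counts in WT single embryos, and 17 and 15 counts in knockout pools, against 14 and 15 counts in control pools. It was too rare to be tested in single embryos and differed little in pools (log2 change 0.05, SE 0.80, adjusted p = 0.997, edgeR). S100a1 and S100a13 lie head to head on opposite strands and share 98 bases in RefSeq, so without knowledge of strand in the counting their low counts are uncertain. S100a4, linked to the motility of fibroblasts and tumour cells through non-muscle myosin, had 0 counts in every single embryo, 8 and 0 counts in knockout pools and 0 and 4 counts in control pools. It was tested in neither set.

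Levels between genes can be compared per length. Divided by the length of the principal transcript, Anxa2, S100a11 and S100a10 formed the top of the order in all 4 groups. In knockout single embryos they averaged 133, 109 and 113 CPM per kb, against 88.9, 79.5 and 94.4 CPM per kb in WT single embryos (n = 3 each). In knockout pools they averaged 166, 155 and 146 CPM per kb, against 162, 153 and 118 CPM per kb in control pools (n = 2 each). In control pools S100a10 (115.5 to 120.5 CPM per kb) lay below the other two, while S100a11 (149.5 to 157.2) fell within the span of Anxa2 (142.7 to 181.8); in the other 3 groups the spans of all 3 genes overlapped. Anxa6, S100a6 and Anxa5 came next. Their mean levels were 19.8, 15.2 and 11.2 CPM per kb in knockout single embryos, with overlapping spans, against 24.1, 5.43 and 3.30 CPM per kb in WT single embryos, where Anxa6 stood clear of the other two. In knockout pools S100a6 averaged 37.6 CPM per kb and stood above Anxa6 at 12.4, whereas in control pools S100a6 at 11.9 fell within the span of Anxa6 at 12.5. S100a13 followed at 1.47 to 2.29 CPM per kb over the 4 groups, and S100a1, S100a4 and Anxa1 were each at 0.627 or below. Together the 10 genes took 0.0326% to 0.0462% of the counts in knockout single embryos, against 0.0264% to 0.0331% in WT single embryos, and 0.0488% to 0.0493% in knockout pools, against 0.0425% to 0.0470% in control pools.

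The filter on low counts kept 7 of the 10 genes in single embryos and 8 in pools. In single embryos 0 of the 7 passed 5% by edgeR, 3 (Anxa5, S100a6 and Anxa2) had an unadjusted p under 0.05, DESeq2 called those 3, and limma-voom called 0. Over all 13830 genes tested, 4.37% passed 5% in single embryos, 161 higher and 444 lower in knockouts, 3131 had an unadjusted p under 0.05, and DESeq2 called 1957 and limma-voom 757. The members' median log2 change was 0.50, with 5 of 7 above 0, beside -0.04 over all genes, 48.3% of which were above 0. In 4 of the 7 genes (S100a6, S100a11, Anxa2 and Anxa5) every knockout embryo exceeded every WT embryo, a pattern held by 12.6% of all genes tested. In pools 0 of the 8 tested members passed 5% by edgeR, 1 (S100a6) had an unadjusted p under 0.05, DESeq2 called that 1, and limma-voom called 0. Of all 16259 genes tested in pools, 0.0% passed 5% by edgeR, with 1073 at an unadjusted p under 0.05, 71 called by DESeq2 and 1 by limma-voom. The members' median log2 change in pools was 7e-04, with 4 of 8 above 0 (4 to 6 under the other scalings), beside 0.01 over all genes. Of all genes, 51.3% were above 0 in pools. S100a1 and S100a6 were higher in both knockout pools than in both control pools, a pattern held by 24.3% of all genes tested. Nothing is read from these shares, since the members were chosen with results of these comparisons known.

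**Figure D2:**
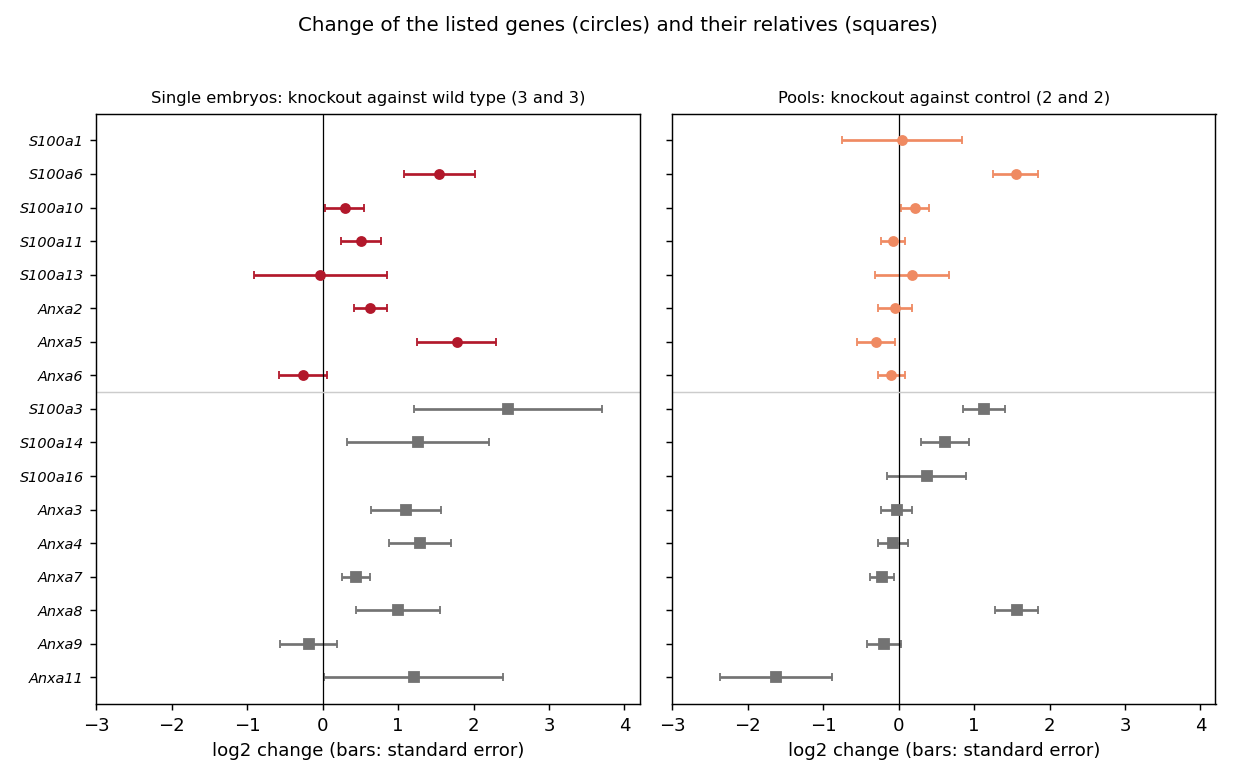
Log2 change (x axis, with standard error bars, edgeR) of the 8 tested members (circles) and of 9 related S100 and annexin genes (squares) in single embryos, knockout against wild type (left, 3 and 3 libraries), and in pools, knockout against control (right, 2 and 2 libraries). S100a1 and S100a16 were not tested in single embryos and have no point on the left. S100a6 is at 1.54 and 1.55 in the 2 panels, while Anxa5 is at 1.78 on the left and -0.31 on the right; none of the genes drawn passed 5% in either set.

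Among the other S100 and annexin genes, 18 of the 19 listed were found in the table and 0 passed 5% by edgeR in either set, while 3 of the 8 tested in single embryos and 2 of the 10 tested in pools had an unadjusted p under 0.05, beside 3131 of all 13830 genes in single embryos and 1073 of all 16259 in pools. DESeq2 called Anxa4 in single embryos and Anxa8 in pools, and limma-voom called 0 in either set. Over all genes, DESeq2 called 1957 in single embryos, and 64 higher and 7 lower in pools. Anxa4, an annexin of epithelial apical membranes, had 61.3, 41.8 and 63.6 CPM in knockout single embryos, against 22.7, 37.9 and 10.98 CPM in WT single embryos. In pools it had 53.7 and 43.8 CPM with the knockout, against 51.2 and 46.0 CPM in controls. Its groups were apart in single embryos and overlapped in pools (log2 change 1.295, SE 0.41, adjusted p = 0.0927 and -0.08, SE 0.20, adjusted p = 0.973, edgeR). Anxa3 and Anxa7 were at 1.10 (SE 0.46, adjusted p = 0.186, edgeR) and 0.44 (SE 0.19, adjusted p = 0.196) in single embryos, and at -0.03 and -0.22 in pools, where the sign of Anxa3 turned with upper-quartile or no scaling and that of Anxa4 with no scaling. Over members and relatives together, 7 of the 9 annexins tested in single embryos had a log2 change above 0 (median 0.998, with 7 under each other scaling), beside 48.3% of all genes. With DESeq2 size factors, upper-quartile scaling and no scaling, 1, 3 and 4 of 9 did in pools, so the signs of these small pooled changes depend on the scaling. In the main fit of pools 1 of 9 did (median -0.10), beside 51.3% of all genes. The 1 was Anxa8, an annexin of late endosomes.

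Anxa8 had 29.4 and 27.0 CPM in knockout pools, against 11.4 and 6.55 CPM in control pools. In single embryos it had 14.04, 13.2 and 26.8 CPM with the knockout, against 7.55, 17.4 and 3.45 CPM in WT embryos. The pools did not overlap and the single embryos did, since WT embryo 2 exceeded 2 of the 3 knockout embryos (log2 change 1.56, SE 0.28, adjusted p = 0.313 in pools; 0.998, SE 0.56, adjusted p = 0.324 in single embryos; edgeR). Anxa8 lies wholly within the bounds of A630023A22Rik, a gene of the opposite strand, but shares no exon with it in GENCODE. Anxa2, Anxa3, Anxa4, Anxa9 and Anxa11 do share exon bases there with genes that have no entry in the deposited counts. The annotation behind the counts is not known, and the effect of these overlaps was not tested. Anxa11, the annexin that binds S100A6 through its N-terminus, had log2 changes of 1.21 (SE 1.19, adjusted p = 0.60, edgeR) in single embryos and -1.63 (SE 0.74, adjusted p = 0.753) in pools, on at most 4.70 CPM in any library. It is among the 7 annexins above 0 in single embryos. With 0 CPM in WT embryo 1, Anxa11 passed the filter there with help from the knockouts, so its sign was not free of the filter. Anxa9, an annexin that lacks working calcium sites, was at -0.18 in single embryos and -0.20 in pools, and its start shares 410 bases with Cers2.

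S100a3, a cysteine-rich S100 protein of the hair cuticle, lies beside S100a4 in the chromosome 3 cluster. It had 3.22, 2.89 and 1.61 CPM in knockout single embryos, against 0, 0.913 and 0.518 CPM in WT single embryos. It had 8.04 and 12.5 CPM in knockout pools, against 4.41 and 4.34 CPM in control pools. Every knockout library exceeded every control library of its set, as for S100a6 (log2 change 2.46, SE 1.24, adjusted p = 0.272 in single embryos; 1.13, SE 0.28, adjusted p = 0.414 in pools; edgeR). Such an order was held by 12.6% of all genes tested in single embryos and by 24.3% in pools. The single-embryo value of S100a3 rests on few counts, and it was 1.89 without WT embryo 1 and 3.26 without WT embryo 2. S100a14, an S100 protein of epithelia, had log2 changes of 1.26 (SE 0.94, adjusted p = 0.473, edgeR) and 0.61 (SE 0.32, adjusted p = 0.794) in the 2 sets, and S100a16 was at 0.37 (SE 0.53, adjusted p = 0.943, edgeR) in pools, the set in which it was tested. Counting members and relatives, 5 of the 6 S100 genes tested in single embryos had a log2 change above 0 (median 0.88, with 5 or 6 under the other scalings). Pools had 7 of 9 above 0 (median 0.21, with 7 or 8 under the other scalings). Of all genes, 48.3% in single embryos and 51.3% in pools were above 0. In single embryos S100a3 passed the filter on low counts only through the knockouts, and S100a14, at 0.135 CPM in WT embryo 1, with their help. The single-embryo signs of S100a3 and S100a14 were thus not free of the filter.

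The genes between S100a3 and S100a6 did not share their levels. S100a4 follows S100a3 after 1.06 kb, S100a6 follows S100a4 after 6.85 kb, and S100a5 lies between S100a4 and S100a6. S100a5 had 0 counts in all 10 libraries, and S100a4 had the low counts given above. S100a3 spans S100a2 and shares an exonic stretch with another GENCODE gene model that also covers S100a4, so the counts of these 3 are uncertain. Past S100a6, S100a7a lay at 0 to 0.513 CPM, and S100a8 and S100a9, the calprotectin subunits of neutrophils, had 0 counts in every library. S100a11 and S100a10 lie 2824.77 kb beyond S100a9. The promoter windows of S100a4 and S100a6 printed above stand on either side of S100a5.

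**Figure D3:**
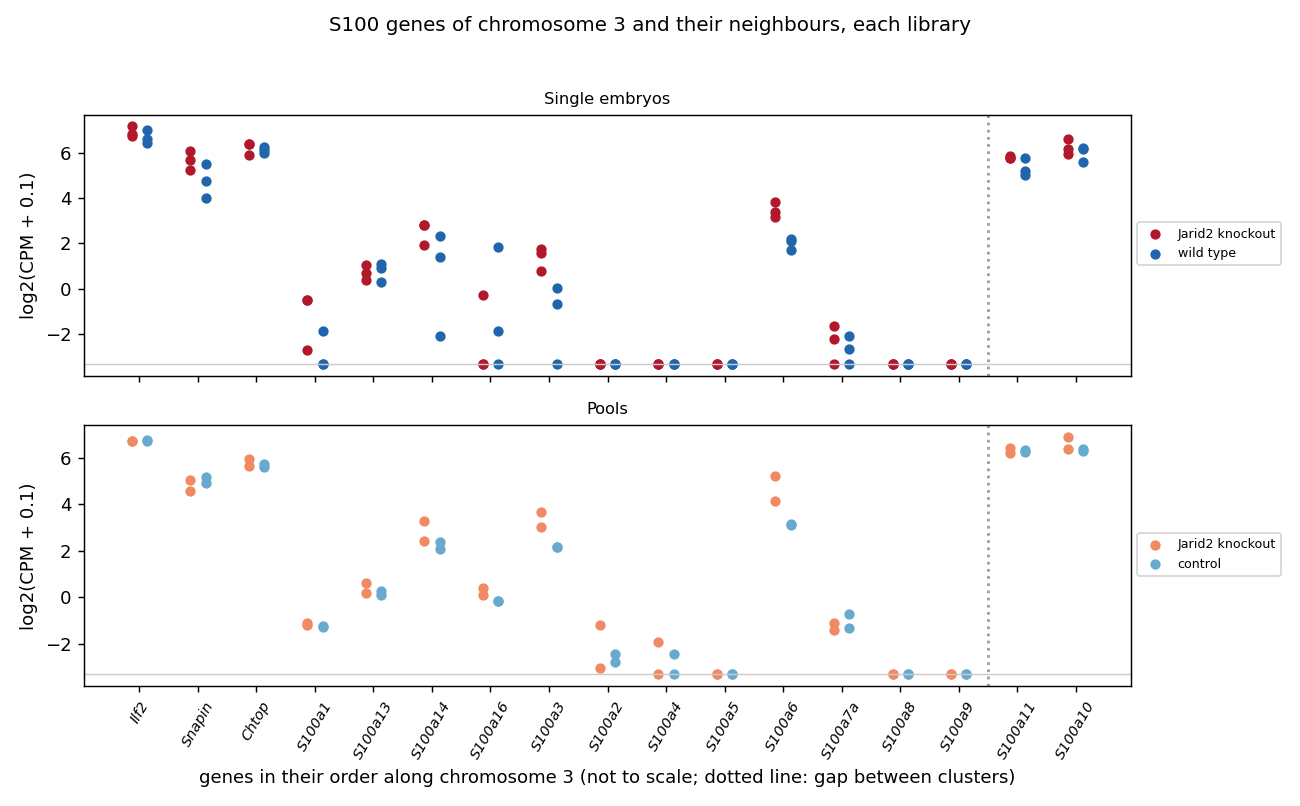
log2(CPM + 0.1) (y axis) of the S100 genes of chromosome 3 and some neighbours in each library, single embryos above and pools below, with genes in their order along the chromosome (not to scale) and knockout points left of control points; the grey line marks 0 counts. S100a3 and S100a6 are higher in the knockout libraries in both panels, and S100a4 and S100a5 between them lie at or near 0 counts.

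Genes whose products bind S100 proteins or annexins were read from a list of 20, of which 16 were tested in single embryos and 17 in pools. In single embryos 1 rose and 2 fell past 5% by edgeR, beside 4.37% of all genes, and 9 had an unadjusted p under 0.05, beside 3131 of all 13830 genes. The median log2 change was -0.34. DESeq2 called 2 higher (Sugt1 and Cacybp) and 4 lower (Ahnak, Plaur, Myh9 and Myh10) in single embryos, and limma-voom called the same 3 as edgeR. Over all 13830 genes, DESeq2 called 1957 and limma-voom 757. In pools 0 passed 5% by edgeR and 4 had an unadjusted p under 0.05, beside 1073 of all 16259 genes. DESeq2 and limma-voom called 0 there, and the median was -0.06, or 0.03 with no scaling. Sugt1, the SGT1 co-chaperone that S100A6 binds, rose in single embryos to 1810, 1408 and 1638 CPM in knockouts, against 819.4, 806.4 and 906.0 CPM in WT embryos (log2 change 0.99, SE 0.18, adjusted p = 0.0197, edgeR). It had 2425 and 2124 CPM in knockout pools, against 2408 and 2054 CPM in control pools. The single-embryo groups were apart and the pools overlapped. Cacybp, the calcyclin-binding protein and a second S100A6 partner, had 363.3, 332.4 and 415.9 CPM in knockout single embryos, against 195.6, 245.7 and 258.8 CPM in WT embryos (log2 change 0.72, SE 0.20, adjusted p = 0.0670, edgeR). In pools it had 389.3 and 343.6 CPM with the knockout, against 404.1 and 408.2 CPM in controls (log2 change -0.23, SE 0.17, adjusted p = 0.864, edgeR).

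Ahnak, the giant scaffold that the S100A10 and annexin A2 complex holds at the plasma membrane, fell in single embryos to 51.4, 72.9 and 44.2 CPM in knockouts, against 155.8, 125.2 and 104.0 CPM in WT embryos (log2 change -1.16, SE 0.25, adjusted p = 0.0297, edgeR). In pools it had 47.5 and 65.4 CPM with the knockout, against 44.0 and 50.5 CPM in controls, which overlapped. Plaur, the urokinase receptor of the plasminogen system that the same complex serves at the cell surface, fell in single embryos to 23.0, 37.3 and 34.3 CPM in knockouts, against 63.5, 69.1 and 98.5 CPM in WT embryos (log2 change -1.26, SE 0.28, adjusted p = 0.0351, edgeR). In pools it had 27.2 and 26.5 CPM with the knockout, against 31.4 and 41.6 CPM in controls (log2 change -0.53, SE 0.20, adjusted p = 0.693, edgeR). Ahnak and Plaur were lower in knockout single embryos, in which Anxa2 was higher and S100a10 overlapped. Plat, tissue plasminogen activator, was at 2.45 and 1.76 CPM in knockout pools, against 0.559 and 0.843 CPM in control pools (log2 change 1.51, SE 0.48, adjusted p = 0.614, edgeR). In single embryos it had 0, 0.963 and 1.83 CPM with the knockout, against 0.944, 4.68 and 4.03 CPM in WT embryos, where the groups overlapped and the knockout mean was the lower. The non-muscle myosin heavy chains Myh9 and Myh10, targets of S100A4, had log2 changes of -0.71 (SE 0.24, adjusted p = 0.106, edgeR) and -0.70 (SE 0.19, adjusted p = 0.0675) in single embryos, where their groups did not overlap. Of all genes tested in single embryos, 15.3% were lower in every knockout than in every WT embryo, as were Ahnak, Plaur, Myh9 and Myh10. Another 12.6% were higher in every knockout than in every WT embryo, as were Sugt1 and Cacybp. Cacybp, Myh9 and Myh10 were named after their values were seen. The calls of Sugt1, Ahnak and Plaur in single embryos were each lost without knockout embryo 1 or 4 or WT embryo 1 or 3 (adjusted p 0.0697 to 0.142), and that of Ahnak also without WT embryo 2 (adjusted p = 0.0503).

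**Figure D4:**
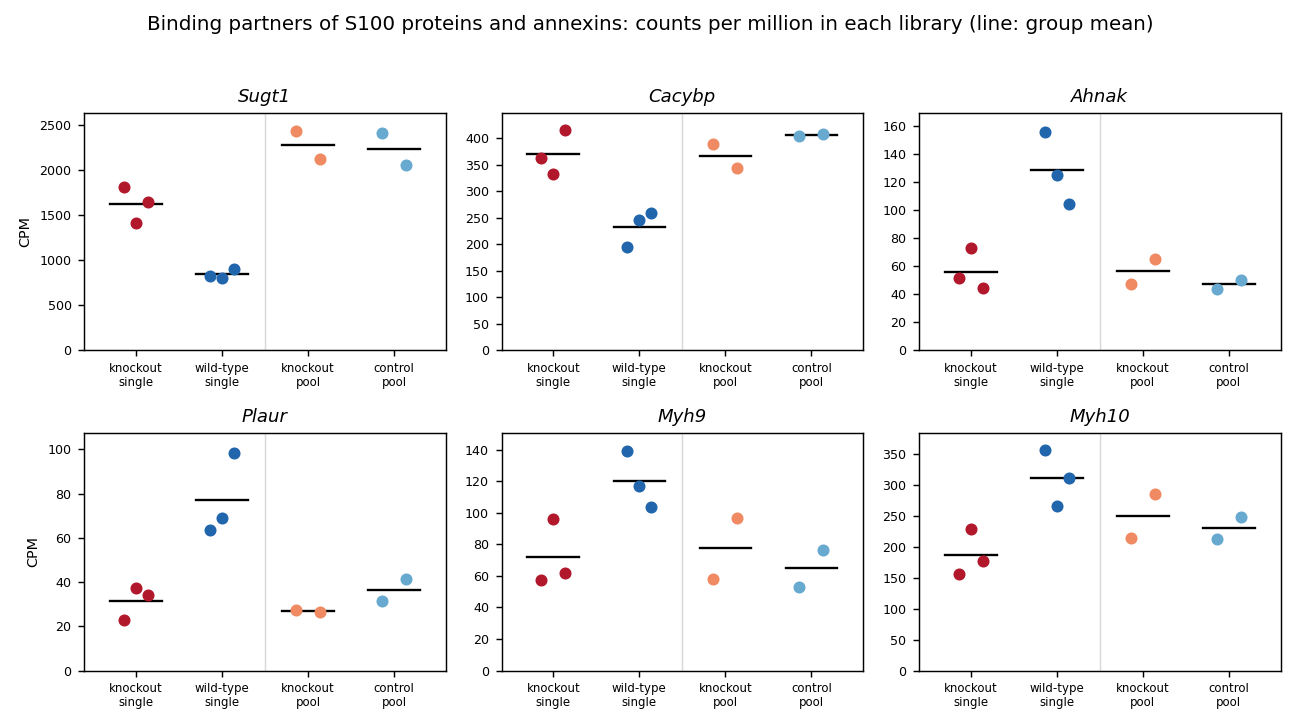
CPM (y axis, linear from 0, each panel with its own scale) of 6 genes whose products bind S100 proteins or annexins, in each library; points are libraries, lines are group means, and the groups run from knockout to wild-type single embryos and then from knockout to control pools. In single embryos Sugt1 and Cacybp are higher and Ahnak, Plaur, Myh9 and Myh10 are lower in every knockout than in every WT embryo, and in pools the groups of Sugt1, Ahnak, Myh9 and Myh10 overlap.

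A list of 18 genes held those of membrane repair, the ESCRT machinery and phospholipid scrambling, and 16 were tested in single embryos. There 1 (a scramblase gene) fell and 0 rose past 5% by edgeR, beside 4.37% of all genes. An unadjusted p under 0.05 by edgeR was held by 5, beside 3131 of all 13830 genes. The median log2 change was 0.23. DESeq2 called 2 higher and 2 lower in single embryos (Ano6, Chmp2a, Pdcd6 and Xkr8), and limma-voom called 2 lower (Ano6 and Xkr8). Over all 13830 genes, DESeq2 called 1957 and limma-voom 757. In pools 17 were tested and 0 passed 5% by edgeR, DESeq2 or limma-voom. There 3 had an unadjusted p under 0.05 by edgeR, beside 1073 of all 16259 genes, and the median was -0.04, or 0.08 with no scaling. The gene that fell was Xkr8, a scramblase that exposes phosphatidylserine, the ligand of annexin A5, on dying cells. It had 24.0, 23.5 and 34.2 CPM in knockout single embryos, against 74.0, 74.7 and 88.0 CPM in WT embryos (log2 change -1.49, SE 0.27, adjusted p = 0.0197, edgeR). In pools it had 22.1 and 18.5 CPM with the knockout, against 23.9 and 33.5 CPM in controls (log2 change -0.58, SE 0.22, adjusted p = 0.697, edgeR). Every knockout library was below every control library of its set in both sets. That order was held by 15.3% of all genes tested in single embryos and by 11.1% in pools. The call in single embryos was lost without knockout embryo 1 or 4 or WT embryo 1 or 3 (adjusted p 0.0655 to 0.0888). Plscr1, another phospholipid scramblase, was at -1.28 in pools (SE 0.41, adjusted p = 0.621, edgeR), while in single embryos it had 3.89, 2.94 and 1.11 CPM with the knockout, against 0.539, 0.684 and 3.62 CPM in WT embryos, which overlapped with the knockout mean the higher.

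Of the other cytosolic EF-hand genes, all 20 on the list were tested in both sets and 0 passed 5% by edgeR. An unadjusted p under 0.05 by edgeR was held by 4 in single embryos, beside 3131 of all 13830 genes. It was held by 3 in pools, beside 1073 of all 16259 genes. DESeq2 called Myl6, Myl12b and Pdcd6 in single embryos and Hpcal1 in pools, and limma-voom called Myl6 in single embryos. Over all genes, DESeq2 called 1957 and limma-voom 757 in single embryos, and DESeq2 called 64 higher and 7 lower in pools. Of the 20, 16 had a log2 change above 0 in single embryos (median 0.25, with 15 to 17 under the other scalings), beside 48.3% of all genes. Pools had 4 above 0 (median -0.13, with 4 to 8 under the other scalings), beside 51.3% of all genes. The smallest p values in single embryos were those of the myosin light chains Myl6, at 0.64 (SE 0.18, adjusted p = 0.0649, edgeR), and Myl12b, at 0.55 (SE 0.17, adjusted p = 0.0829), and Myl12b can share reads with its near-identical paralog Myl12a. In pools they were those of Hpcal1, a neuronal calcium sensor, at 1.96 (SE 0.34, adjusted p = 0.313, edgeR), and the centriole protein gene Cetn3, at -0.38 (SE 0.16, adjusted p = 0.738). Among 24 genes in and beside the S100 clusters, 11 were tested in single embryos and 15 in pools, with 0 past 5% by edgeR in either set. Of these, 3 in single embryos and 2 in pools had an unadjusted p under 0.05 by edgeR. The counts over all genes are those given for the EF-hand list. DESeq2 called S100a6 in both sets and Tdpoz2 in single embryos. Beside the S100 genes given above, Tdpoz2 had the smallest p in single embryos, at 4.64 (SE 1.24, adjusted p = 0.0605, edgeR), and its near-identical copies can share reads. Tdpoz2 had 15.3, 0.963 and 2.99 CPM in knockout single embryos, against 0.067, 0.627 and 0.115 CPM in WT embryos, and its log2 change was 2.88 without knockout embryo 1 and 6.10 without WT embryo 2. It passed the filter on low counts in single embryos only through the knockouts. In pools it had 3.23 and 1.32 CPM with the knockout, against 2.28 and 2.72 CPM in controls, which overlapped.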

How the data were processed

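Polyadenylated RNA of 10 morula libraries was analysed. Per the labels' protocols, SMART-Seq v4 gave the complementary DNA, Nextera XT the libraries and a NextSeq 500 single-end reads of 75 bases. The authors deposited whole-number read counts per gene, not normalized. The submitters' processing notes name mm10, RSEM 1.3.1, STAR 2.7.6a and fastp 0.21.0. What each did, the annotation and the strand setting are not given in those sources. The table had turned 27 gene names into dates, which match no gene discussed. Reads have no molecular identifiers, so floors cover counting error only.

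From the counts, CPM were computed on library totals. Genes were kept by filterByExpr, scaled by TMM and tested with edgeR 4.0.16 in R 4.3.3 (quasi-likelihood F test, two-sided, Benjamini-Hochberg adjustment over all genes tested, threshold 5%, prior count 0.125), each set by itself, and for the difference over all 10 libraries with 4 group means. SE is the log2 change divided by the root of its F value. The code was tested on simulated counts. No label ties a pool to a litter, so p-values in pools reflect the spread of these libraries alone, possibly technical. Alternatives used DESeq2 1.42.0, limma-voom (limma 3.58.1), other scalings and filters, robust fitting, a joint fit, a replicate block, and fits without each library in turn.

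All members are named, as are relatives with a mean of at least 1 CPM in a group and, per list, up to 3 genes with the smallest p past 5%, or else the 2 with the smallest p. The members and lists were chosen with earlier results of these data known. Gene positions are from RefSeq for GRCm38.p6, the assembly behind mm10, and principal transcript lengths are from GENCODE of the same assembly.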

Additional observations from a re-analysis of the deposited data

How the results depend on the processing

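In single embryos the number of genes past 5% (605) was 1715 with no filter beyond 1 count, 1243 with a mean of at least 10 CPM, 1957 by DESeq2 and 1667 with all 10 libraries in one fit, and the members among them (0) numbered 1, 1, 3 and 2 in that order (Anxa5; Anxa5; Anxa2, Anxa5 and S100a6; Anxa5 and S100a6). The filter at 10 CPM removed S100a6 and S100a13 in single embryos, so neither could be called at that setting. Leaving out 1 library gave 1 to 1316 genes and 0 to 1 members: 1 gene without knockout embryo 4 or WT embryo 3, 41 without WT embryo 1, 66 without knockout embryo 1, 1316 without knockout embryo 3, and Anxa5 as the 1 member without WT embryo 2. In pools, with 0 genes and 0 members past 5%, there were 170 genes and 1 member with no filter, 71 and 1 by DESeq2, 1 and 0 by limma-voom, and 25 to 379 and 0 to 1 when 1 pool was left out, the member being S100a6 each time. Leaving out a pool assumes that the lone library varies like the others. In the difference of the sets, with 1 gene and 0 members, there were 548 genes and 1 member (Anxa5) with no filter, 544 genes by DESeq2, and 0 to 2 genes when 1 library was left out. The adjusted p of S100a6 over its alternatives was 0.0155 to 0.485 in single embryos and 3.07e-10 to 1 in pools, that of Anxa5 in single embryos 0.00674 to 0.245 and that of Anxa2 0.0294 to 0.754. Upper-quartile scaling gave 301 higher and 423 lower genes in single embryos, beside 161 and 444. Without scaling, the median log2 change of all genes was 0.10 in pools, beside 0.01, and -0.21 in the difference, beside -0.05.

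Signs changed for genes near 0. In single embryos S100a13 (-0.03) was 0.0064 with DESeq2 size factors, 0.0213 with upper-quartile scaling, 0.0068 by DESeq2 and 0.0163 by limma-voom. In pools with upper-quartile scaling, no scaling and at least 10 CPM, Anxa2 (-0.05) was 7e-04, 0.0343 and 0.01, and Anxa3 (-0.03) was 0.0212, 0.0531 and 0.029. With no scaling S100a11 (-0.07) was 0.0193 and Anxa4 (-0.08) was 0.0057 in pools. The S100a6 difference (0.02) was -0.17 with no scaling and -0.0735 at 10 CPM. Leaving out 1 library, S100a13 ranged from -0.25 to 0.17 and Anxa9 from -0.42 to 0.19 in single embryos, and in pools S100a13 from -0.15 to 0.44, Anxa2 from -0.36 to 0.21, Anxa3 from -0.27 to 0.18, Anxa4 from -0.31 to 0.12, Anxa9 from -0.44 to 0.036 and S100a1 from -0.0039 to 0.10. The S100a6 difference then ranged from -0.37 to 0.57. Some changes kept their sign but moved in size: in single embryos Anxa3 ranged from 0.78 to 1.73, Anxa4 from 0.96 to 1.78, Anxa8 from 0.58 to 1.76, S100a14 from 0.70 to 2.22 and Anxa11 from 0.62 to 1.95. The cause of these changes was not tested.

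The labels do not say that a replicate number pairs libraries. Deviations of same-numbered libraries correlated at -0.014 and -0.085 in single embryos and 0.315 in pools. Those of differently numbered libraries correlated at -0.158 to 0.156 in single embryos and -0.315 in pools. With 2 pools per group the deviations mirror each other, so the pooled figures hold 1 value, and nothing is read from it. With the number as a block, 187 genes and 0 members passed 5% in single embryos and 39 genes and 1 member (S100a6, adjusted p = 0.0431, edgeR) in pools, and Anxa9 in single embryos was 0.0693. Knockout embryo 4 and WT embryo 2 had no partner of the same number. The single-embryo changes in that fit thus rested on embryos 1 and 3 of each group. The calls of Sugt1, Ahnak and Plaur were lost in that fit. At 14830332 counts, the smallest library, 3 counts are 0.202 CPM, which limits what can be said of S100a1, S100a4 and Anxa1.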
